A study of Mus musculus with 15 samples.

Results

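The epidermal differentiation complex is a block of genes on mouse chromosome 3 that encode proteins of the outermost, dying layers of the epidermis and many small calcium-binding S100A proteins. Its members were taken as the protein-coding genes whose mouse symbols begin with S100a, Sprr or Lce, together with Lor (loricrin), Ivl (involucrin), Flg (filaggrin), Hrnr (hornerin), Rptn (repetin), Tchh (trichohyalin), Tchhl1 (a trichohyalin-like gene), Crnn (cornulin) and Crct1 (a cysteine-rich C-terminal gene). The rule found 59 of the 36528 genes listed, and all 59 lie on chromosome 3. They comprise 15 S100A genes, 6 fused S100 genes, 14 SPRR (small proline-rich) genes, 21 LCE (late cornified envelope) genes and 3 other envelope genes. The 44 that are not S100A genes are called structural members below. Flg2, which the rule also names, was not analysed here.

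Expression was measured as polyA RNA of tumour cells sorted from skin of mice with basal cell carcinoma. The libraries are 4 controls, 8 after 6 days of vismodegib, an inhibitor of the Hedgehog signal transducer SMO, and 3 after 14 days. All 3 groups, the controls included, carry K14Cre-ER, an inducible Cre driven in basal keratinocytes, with Ptch1fl/fl and p53fl/fl, conditional alleles of the Hedgehog receptor gene and of the p53 gene, and Lgr5GFP, a GFP reporter of Lgr5. The sources used here do not give ages, the sort gate or what the control mice received. The labels do not say whether libraries came from separate mice, so a p-value covers only the variation among these libraries, some of which may be technical.

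Keratinocytes that leave the basal layer stop dividing and assemble a cornified envelope beneath the plasma membrane. Involucrin and loricrin are cross-linked into it by transglutaminases, the SPRR and LCE proteins reinforce it, and the fused S100 proteins, which join an S100 domain to long repeats, bundle keratin or fill the envelope. S100A proteins are short calcium sensors that bind other proteins, and they act in many cell types besides keratinocytes. Basal cell carcinoma cells resemble basal and hair follicle keratinocytes, in which the envelope genes are normally low.

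The promoters below belong to genes on both sides of the contrast in the results. S100a6 and S100a11 fell between 6 and 14 days. Ivl, Sprr1a and Rptn are structural members, and edgeR called none of them in the fit of all libraries. S100a10 and S100a13 also fell and are not shown. No RefSeq promoter was found for S100a10. Each line gives the 250 bases before the RefSeq transcription start in GRCm38.p6, 5′ to 3′ on the gene's own strand. Capitals mark the AP-1 heptamer TGACTCA or its reverse complement TGAGTCA, and the TATA box letters TATAAA or their reverse complement. The windows are chr3:90612644-90612893 for S100a6, chr3:93520246-93520495 for S100a11 and chr3:93393449-93393698 for Rptn, all on the plus strand, and chr3:92573736-92573985 for Ivl and chr3:92485882-92486131 for Sprr1a, both on the minus strand.
S100a6: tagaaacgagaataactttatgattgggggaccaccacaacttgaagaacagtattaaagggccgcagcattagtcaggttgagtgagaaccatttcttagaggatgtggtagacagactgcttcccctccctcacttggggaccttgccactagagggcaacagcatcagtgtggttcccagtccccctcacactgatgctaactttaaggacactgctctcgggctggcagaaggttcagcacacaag
S100a11: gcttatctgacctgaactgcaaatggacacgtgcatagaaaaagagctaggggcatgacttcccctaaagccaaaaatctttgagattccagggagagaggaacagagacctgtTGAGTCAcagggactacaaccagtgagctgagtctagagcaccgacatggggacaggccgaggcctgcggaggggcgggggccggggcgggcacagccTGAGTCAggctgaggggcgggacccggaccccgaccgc
Ivl: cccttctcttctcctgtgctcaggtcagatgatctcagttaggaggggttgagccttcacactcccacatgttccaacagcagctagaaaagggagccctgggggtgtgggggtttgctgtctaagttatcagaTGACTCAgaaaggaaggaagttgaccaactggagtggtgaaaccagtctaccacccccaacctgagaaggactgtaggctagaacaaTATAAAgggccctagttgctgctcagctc
Sprr1a: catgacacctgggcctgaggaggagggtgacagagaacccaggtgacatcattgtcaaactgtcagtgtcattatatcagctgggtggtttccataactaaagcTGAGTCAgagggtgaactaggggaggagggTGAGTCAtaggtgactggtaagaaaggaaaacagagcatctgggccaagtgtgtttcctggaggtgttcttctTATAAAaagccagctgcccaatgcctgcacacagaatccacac
Rptn: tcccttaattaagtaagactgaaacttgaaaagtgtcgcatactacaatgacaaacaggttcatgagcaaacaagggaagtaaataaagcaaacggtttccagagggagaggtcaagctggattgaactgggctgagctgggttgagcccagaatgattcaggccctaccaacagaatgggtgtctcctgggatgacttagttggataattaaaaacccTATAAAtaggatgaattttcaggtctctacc
Ivl held the heptamer 116 bases and TATAAA 29 bases before its start. The Ivl window overlaps the gene span given for Ivl below, which ends at 92573790. Sprr1a held the heptamer at 146 and 116 bases and TATAAA at 43 bases before its start. S100a11 held the heptamer at 136 and 38 bases before its start and no TATAAA, Rptn held TATAAA at 31 bases and no heptamer, and S100a6 held neither.

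RefSeq promoters of 300 bases (250 before to 50 after the start) were found for 54 of the 59 members. Either strand of the heptamer was present in 12 of these 54 (22.2%) and in 5.95% of 27025 genes. It was present in 8 of 14 SPRR genes, in Ivl, Lor, S100a11 and S100a7l2, and in 0 of 20 LCE and 0 of 6 fused S100 genes. TATAAA was present in 25 of 54 members (46.3%) and in 15.7% of all genes, including 10 of 14 SPRR, 4 of 6 fused S100, 4 of 20 LCE and 5 of 12 S100A genes. The 2 motifs share no base in the windows shown. Members of a family share ancestry and sequence, so these counts are a description and not a set of independent sites.

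Total counts ran from 27336935 to 256569828 per library. The labels' sample identifiers fall into 3 ranges (not named as batches in the labels). Range A holds controls 1, 2 and 3 and 5 of the 6-day libraries (1, 3, 4, 6 and 8). Range B holds control 4 and 6-day libraries 2, 5 and 7, while range C holds the 3 libraries at 14 days and nothing else. Range C and 14 days therefore cannot be told apart. Range A libraries held at most 38657170 counts and the others at least 93183564, so depth moves with range too. Krt5 and Krt14, the keratins of basal keratinocytes, were at 4625 to 14826 and 1863 to 15552 CPM in the 15 libraries (CPM are counts scaled to a common library size with TMM factors). Control 1 stood apart in the structural members, and results that rest on it are given with and without it.

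Per length, the 6 most abundant S100A genes were above every structural member, and others were below several of them. By deposited RPKM, a read count scaled by gene length and library size, S100a6 had the highest mean over the 15 libraries, 573 RPKM, followed by S100a10 at 214, S100a16 at 155, S100a14 at 133, S100a11 at 58.3 and S100a1 at 53.3 RPKM. The highest structural member was Sprr1a at 20.3 RPKM, before S100a13 at 18.8, S100a4 at 14.0, S100a8 at 12.9 and S100a9 at 9.29 RPKM. Sprr4 at 5.86, Ivl at 4.08, Tchh at 2.71 and Lor at 2.61 RPKM were the next structural members, above S100a7a at 1.12 and S100a3 at 0.83 RPKM. S100A transcripts made up 83.2 to 98.1% of the CPM of all members in each library, so a summed level of the complex is a level of S100A genes.

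A filter on low counts left 32 members in the tests, 12 S100A and 20 structural. Of the other 27, Sprr3 had no count in any library, and the highest level of any of them in any library was 0.65 CPM. The untested members are S100a2, S100a5, S100a7l2, 8 SPRR genes, 15 LCE genes and Tchhl1. In the shallowest library 3 counts equal 0.110 CPM and in the deepest 0.0117 CPM. A member can pass the filter through the group where it is high, so counts over the 20 tested structural members describe those genes and not the 44.

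**Figure D1:**
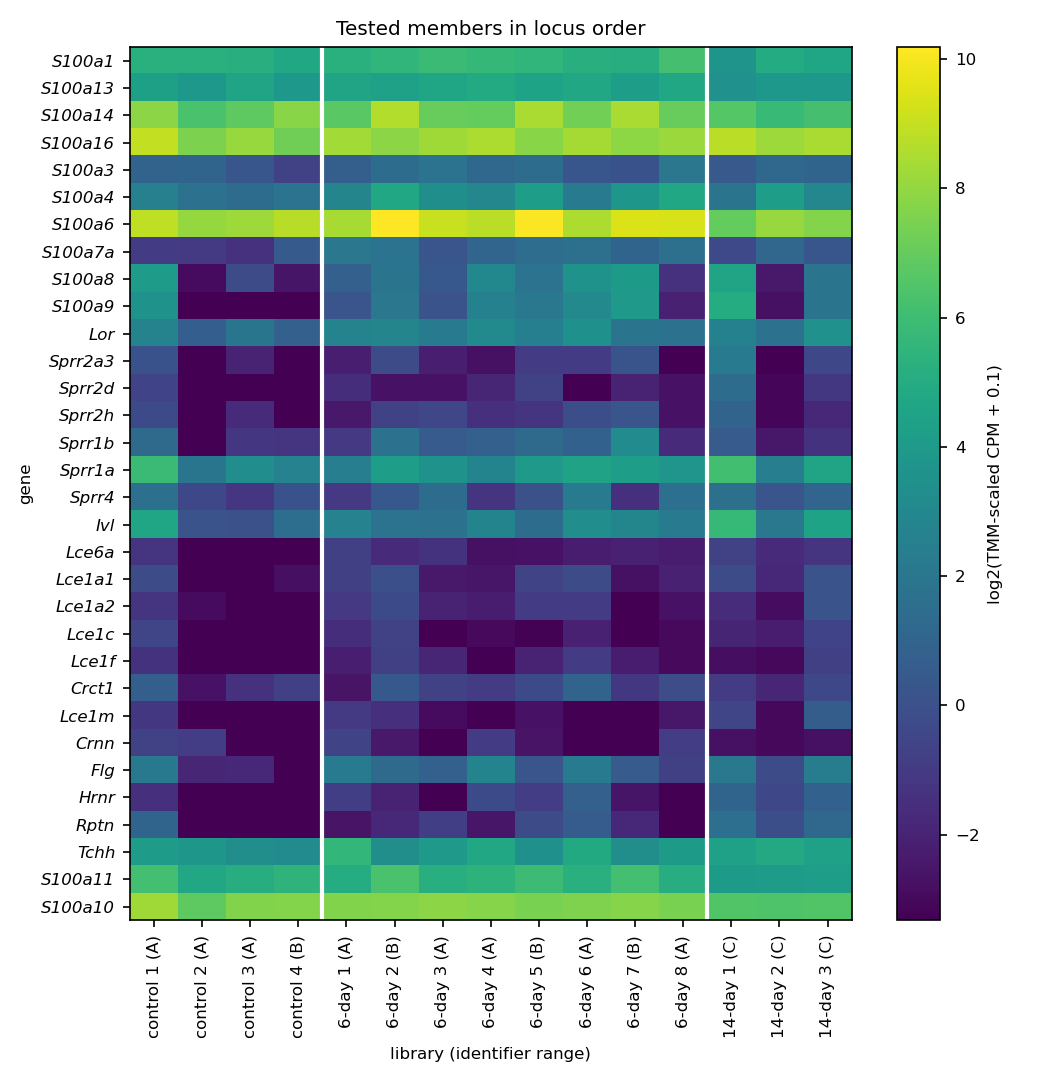
The colour of each cell is log2(CPM + 0.1) for a tested member (rows, in order along the locus) in a library (columns, with the identifier range in brackets); white lines divide controls, 6 days and 14 days. S100a6, S100a10, S100a14 and S100a16 are bright in all 15 libraries, while most structural members are dark in controls 2, 3 and 4 and brighter in control 1.

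S100a10 and S100a11 fell at 14 days against control, and these 2 were the members called in that comparison (edgeR quasi-likelihood test, Benjamini-Hochberg adjusted p under 0.05). No member was called higher. Over all 18751 genes tested, 3.35% were called lower and 3.25% higher, so 2 of 32 members lower is a share near the background. Median log2 fold change was 1.05 over the 32 tested members and -0.02 over all genes.

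S100a10 (Entrez 20194, chr3:93555117-93564645) encodes the light chain partner of annexin A2. Its levels were 309, 114, 197 and 206 CPM in the 4 controls. At 6 days they ran from 175 to 228 CPM with a median of 203. At 14 days they were 93.0, 89.7 and 90.1 CPM, below every other library. S100a10 fell 2.27-fold at 14 days against control (log2 fold change -1.18 ± 0.24 SE, edgeR adjusted p = 0.011) and 2.20-fold against 6 days (-1.14 ± 0.22, edgeR adjusted p = 0.017), while 6 days against control gave -0.04 ± 0.19. Both calls were made in 13 of 15 fits that each left out a library. Both were lost without 14-day library 1 or 3, with edgeR adjusted p up to 0.053 and 0.154. A fit of the 2 groups alone lost the call against control (edgeR adjusted p = 0.099) and kept that against 6 days (0.0069). In bulk RNA, fewer cells of a type and less RNA per cell cannot be told apart.

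S100a11 (Entrez 20195, chr3:93520496-93526288), a transglutaminase substrate of keratinocytes, was at 69.8, 26.9, 33.8 and 44.7 CPM in the controls. At 6 days it ran from 32.8 to 78.1 CPM with a median of 40.1, and the 3 range B libraries held the 3 highest values, 78.1, 61.2 and 71.4 CPM. At 14 days it was 16.6, 17.2 and 18.1 CPM, again below every other library. It fell 2.53-fold at 14 days against control (-1.34 ± 0.37, edgeR adjusted p = 0.042) and 2.85-fold against 6 days (-1.51 ± 0.34, edgeR adjusted p = 0.030). With the 4 range B libraries left out the log2 fold changes were -1.35 (edgeR adjusted p = 0.014) and -1.08 (0.038). A fit of the 2 groups alone lost the call against control (edgeR adjusted p = 0.089) and kept that against 6 days (0.027). Without a filter the call against control was lost too (0.060). Against control the call was lost without control 1, 3 or 4, 6-day library 3 or 4, or any 14-day library (7 of 15 fits called, edgeR adjusted p 0.036 to 0.155), and against 6 days without 6-day library 5 or any 14-day library. Of the 50-base windows of its transcript, 41.1% also occur in other gene models, so its uniquely aligned counts are uncertain. S100a6, S100a10 and S100a13 share 0%.

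**Figure D2:**
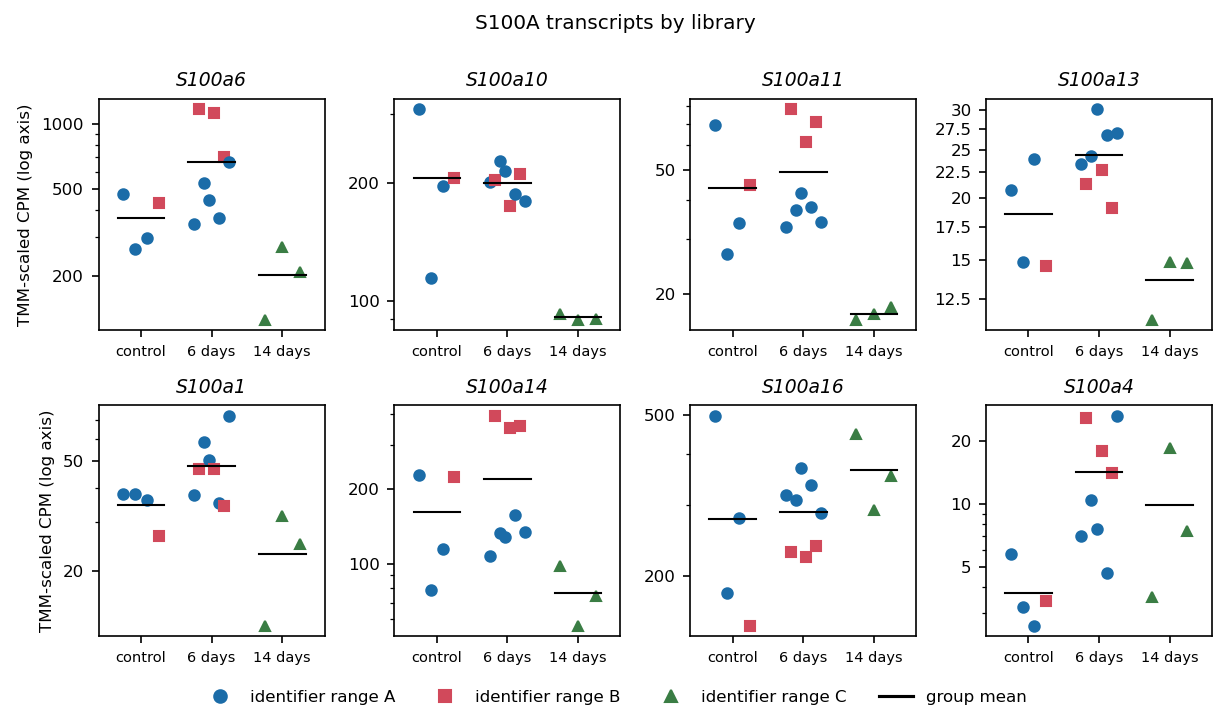
Each point is the CPM of a library (log axis, own scale per gene) for 8 S100A genes by group; shape and colour give the identifier range and the black line is the group mean. The 3 libraries at 14 days lie below all others for S100a10 and S100a11 and below all 6-day libraries for S100a6, S100a13, S100a1 and S100a14, and range B libraries are the highest for S100a14 at 6 days.

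Against 6 days, S100a6 and S100a13 joined these as lower at 14 days. Called lower were 4 of 32 members, all of them among the 12 S100A genes tested, and 1.75% of all genes; no member and 2.14% of all genes were called higher. The 14-day libraries lay wholly below the 6-day libraries for 6 S100A genes, S100a6, S100a10, S100a11, S100a13, S100a1 and S100a14, and for no structural member; groups did not overlap in either direction for 11.7% of all genes. The median log2 fold change of the 12 S100A genes was -0.93 and that of all genes was -0.06. These comparisons share their 14-day libraries with those against control.

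S100a6 (Entrez 20200, chr3:90612894-90614414), or calcyclin, had the highest mean RPKM of the complex. The controls were at 476, 264, 297 and 430 CPM. At 6 days it ran from 346 to 1165 CPM with a median of 602, and at 14 days it was 125, 271 and 207 CPM. The 14-day values lay below all at 6 days but overlapped the controls. It fell 3.32-fold from 6 to 14 days (-1.73 ± 0.42, edgeR adjusted p = 0.037), with log2 fold changes of 0.87 ± 0.35 at 6 days (edgeR adjusted p = 0.298) and -0.87 ± 0.43 at 14 days (0.243) against control. The 6-day libraries of range B were at 1165, 1118 and 703 CPM against 346 to 667 in range A. Without the range B libraries the fall was -1.22 on the log2 scale (edgeR adjusted p = 0.041), and within range A alone the 6-day difference from control was 0.44 (edgeR adjusted p = 0.464). The call against 6 days was made in 9 of 15 fits and was lost without 6-day library 2, 5, 7 or 8 or 14-day library 1 or 3.

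S100a13 (Entrez 20196, chr3:90514233-90524581), known for a role in the release of FGF1, was steadier. Controls were at 20.7, 14.9, 24.0 and 14.6 CPM, 6-day libraries at 19.1 to 30.1 with a median of 23.9, and 14-day libraries at 11.4, 14.8 and 14.8 CPM. It fell 1.78-fold from 6 to 14 days (-0.84 ± 0.21, edgeR adjusted p = 0.040), but this call was made in 4 of 15 fits. Among those fits it was kept without control 1, 3 or 4 or 6-day library 7. It was also lost when scaled by library totals (edgeR adjusted p = 0.056) and without a filter (0.077). DESeq2 called S100a13 (adjusted p = 0.0012), beside 14.8% of all genes called in either direction. Its gene model overlaps that of S100a1, and the sources used here do not say whether counting used strand.

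S100a1 and S100a14 had separated groups at 6 and 14 days but missed the threshold in the fit of all libraries. DESeq2 called both (adjusted p = 0.0059 and 0.014), beside 14.8% of all genes called in either direction. S100a1, best known from muscle, was at 38.0, 38.0, 36.2 and 26.8 CPM in controls, 34.3 to 72.5 (median 46.8) at 6 days and 12.7, 31.5 and 25.1 at 14 days. From 6 to 14 days its log2 fold change was -1.04 ± 0.28 (edgeR adjusted p = 0.054). It was called with a term for range B (edgeR adjusted p = 0.018), with a stricter filter (0.044) and without the range B libraries (0.0498). It was not called when scaled by library totals (edgeR adjusted p = 0.067), without a filter (0.078) or with the 2 groups alone (0.072). Of 15 fits that each left out a library, 2 called it (edgeR adjusted p 0.043 to 0.386). S100a14, an S100 of epithelial cells, was at 228, 78.9, 115 and 224 CPM in controls and at 97.9, 56.4 and 74.7 at 14 days. At 6 days its range B libraries were at 393, 350 and 356 CPM and its range A libraries at 108 to 158. Its log2 fold change from 6 to 14 days was -1.53 ± 0.49 (edgeR adjusted p = 0.088), and -0.77 (0.143) without range B. It was called in 0 of 15 fits that each left out a library. S100a16, another epithelial S100, was at 498, 181, 278 and 151 CPM in controls, 223 to 371 (median 297) at 6 days and 450, 292 and 354 at 14 days, with overlapping groups and log2 fold changes of 0.06 to 0.40.

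At 6 days against control no member was called by edgeR's quasi-likelihood test, beside 1.26% of all genes. At an unadjusted p under 0.05 there were 4 of 32 members, S100a4, S100a6, S100a7a and S100a13, all higher, beside 12.7% of all genes, a share near the background. DESeq2 called S100a4 and S100a7a, beside 4.52% of all genes. No member had groups that did not overlap, beside 2.69% of all genes. Log2 fold changes were positive for 26 of 32 members, with a median of 0.45 against 0.03 over all genes.

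S100a7a, an antimicrobial psoriasin-type gene, had the smallest p of these. Controls were at 0.407, 0.386, 0.281 and 1.34 CPM, and 6-day libraries at 1.10 to 4.04 CPM with a median of 2.88. At 14 days it was 0.677, 2.13 and 1.12 CPM. Only control 4 overlapped the 6-day values. The 6-day log2 fold change was 2.12 ± 0.52 (edgeR adjusted p = 0.064). Of 15 fits that each left out a library, 1 called it (edgeR adjusted p 0.020 to 0.194). That was the fit without control 4 (2.89), which is singled out here on these same values, so nothing is read from it. With a term for range B the log2 fold change was 2.21 (edgeR adjusted p = 0.020). Within range A, which also leaves out control 4, it was 2.85 (0.028). Within range B, where control 4 is the lone control, it was 1.004.

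S100a4, a regulator of cell motility, was at 5.72, 3.21, 2.59 and 3.41 CPM in controls, 4.66 to 26.6 (median 12.2) at 6 days and 3.56, 18.6 and 7.41 at 14 days. The 6-day log2 fold change was 1.94 ± 0.55 (edgeR adjusted p = 0.110). Its transcript shares 56.3% of its 50-base windows with another gene model, so this value is uncertain. S100a3, known from the hair cuticle, was at 0.526 to 1.93 CPM in controls, 0.955 to 3.93 at 6 days and 1.27 to 2.23 at 14 days, and its groups overlapped.

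S100a8 and S100a9 encode the subunits of calprotectin, made by neutrophils and by stressed keratinocytes. S100a8 was at 16.7, 0.0297, 0.75 and 0.0671 CPM in controls, 0.277 to 16.1 (median 3.56) at 6 days and 23.6, 0.0931 and 3.58 at 14 days. S100a9 was at 11.7 CPM in control 1 and 0 in the other 3 controls, 0.138 to 15.6 (median 4.03) at 6 days and 32.4, 0.0543 and 3.58 at 14 days. In every group both genes ran from under 1 to above 10 CPM, and control 1 and 14-day library 1 were the highest of their groups for both genes. The standard errors of the log2 fold changes were 1.39 to 2.0, and neither gene was called. The 10 neutrophil markers summed to 0.0447 to 0.813 CPM in controls, 0.0612 to 1.16 at 6 days and 0.854 to 1.74 at 14 days, Retnlg was at 0 in all 15 libraries, and Ly6g was above 0 in 14-day library 2 only, at 0.008 CPM. Csf3r, at 0 in all controls, passed the filter through treated libraries. It was called higher at 14 days against control, at 0.711, 0.481 and 0.825 CPM (edgeR adjusted p = 0.039). That call was lost with DESeq2 (adjusted p = 0.084), without a filter (edgeR, 0.052) and without control 1 (0.059).

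The fused S100 genes were low in controls. Tchh, a structural protein of the inner root sheath and tongue, was the highest of them at 17.7, 14.0, 10.2 and 8.96 CPM in controls, 10.003 to 48.9 (median 15.9) at 6 days and 21.1, 28.0 and 20.8 at 14 days. All 14-day values lay above all controls, with a log2 fold change of 0.87 ± 0.50 (edgeR adjusted p = 0.308). Hrnr, a repeat protein of the granular layer, had the same order: 0.271 CPM in control 1 and 0 in controls 2 to 4, 0 to 1.65 (median 0.301) at 6 days and 1.93, 0.652 and 1.70 at 14 days. Its log2 fold change at 14 days was 4.42 ± 1.75 (edgeR adjusted p = 0.144). Tchh and Hrnr were the members whose 14-day levels were wholly above control, S100a10 and S100a11 those wholly below; 23.4% of all genes did not overlap in this comparison.

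Flg, the keratin-bundling protein of the granular layer, was at 4.23, 0.178, 0.187 and 0 CPM in controls, 0.498 to 6.76 (median 2.04) at 6 days and 4.10, 0.768 and 5.15 at 14 days. Control 1 lay within the treated range and the other 3 below every treated library. Rptn was at 1.92 CPM in control 1 and 0 in the other 3, 0 to 1.40 (median 0.185) at 6 days and 2.94, 0.846 and 2.19 at 14 days. Crnn, a gene of oesophageal epithelium, was at most 0.581 CPM in any library. Tchhl1 was not tested.

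Ivl and Lor are the classical envelope precursors. Ivl (Entrez 16447, chr3:92570899-92573790) was at 25.4, 0.98, 0.937 and 2.82 CPM in controls, 2.61 to 9.81 (median 5.30) at 6 days and 52.6, 4.08 and 22.5 at 14 days. From 6 to 14 days its log2 fold change was 2.27 ± 0.81 (edgeR adjusted p = 0.120). DESeq2 called it higher (2.28, adjusted p = 0.045), beside 14.8% of all genes called in either direction. A fit of the 2 groups alone also called it (2.29, edgeR adjusted p = 0.043). The 14-day libraries 1 and 3 lay above every 6-day library, and library 2 lay within the 6-day range. Lor was at 6.59, 1.52, 3.66 and 1.69 CPM in controls, 3.15 to 10.8 (median 6.11) at 6 days and 5.97, 3.37 and 11.3 at 14 days, with log2 fold changes of 0.88 ± 0.47 and 1.04 ± 0.56 against control (edgeR adjusted p = 0.481 and 0.281). Crct1 stayed between 0.0594 and 1.86 CPM.

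**Figure D3:**
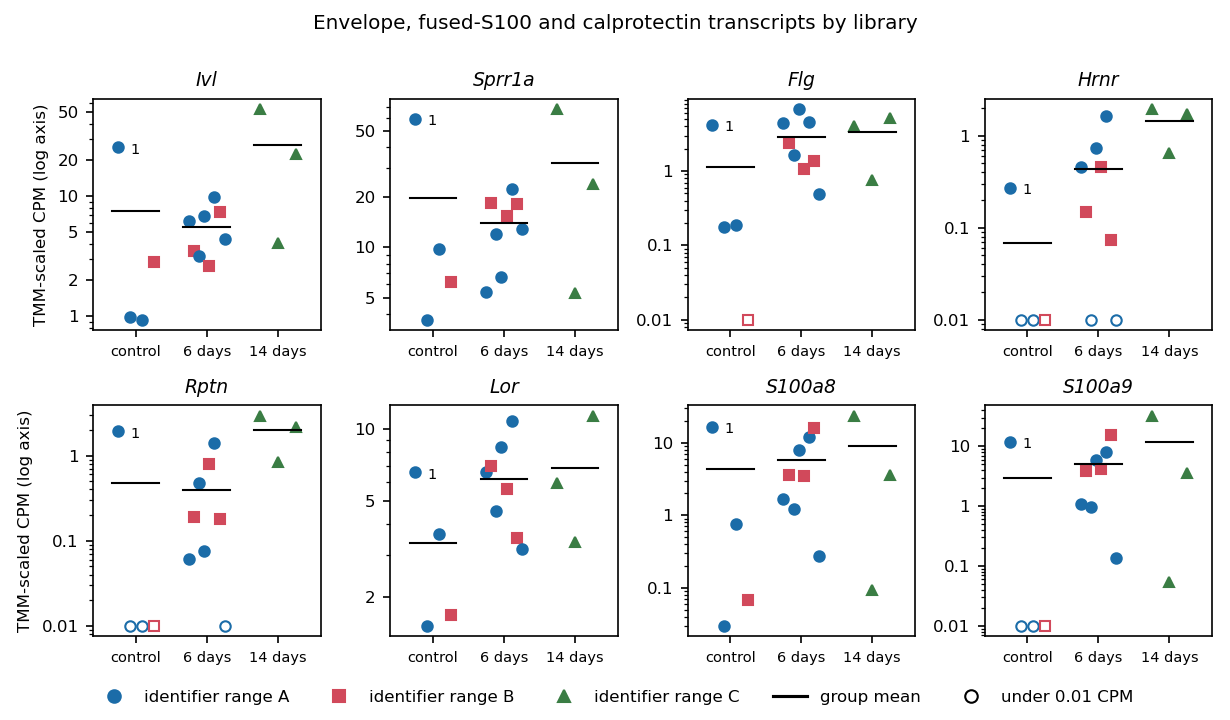
Each point is the CPM of a library (log axis, own scale per gene) for 6 structural members and S100a8 and S100a9, with shape and colour for the identifier range, a black line for the group mean, open symbols for libraries under 0.01 CPM (drawn at 0.01) and the digit 1 beside control 1. Control 1 is the highest control in every panel, and controls 2, 3 and 4 lie at 0 for Rptn, Hrnr and S100a9.

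Of the SPRR genes, whose proteins cross-bridge the envelope and rise with wounding, Sprr1a was the most abundant, at 59.3, 3.68, 9.84 and 6.23 CPM in controls. It ran from 5.38 to 22.3 CPM (median 14.2) at 6 days and was 67.6, 5.35 and 24.0 CPM at 14 days. Sprr1b had its highest value at 6 days, 8.92 CPM in library 7, with 0 to 2.44 in controls and 0.0854 to 1.35 at 14 days. Sprr2a3 was at 0.949 CPM in control 1, at most 0.156 in the others, at most 1.04 at 6 days and 4.82, 0 and 0.656 at 14 days; it shares 61.1% of its windows with other Sprr2 genes and a gene model, so its counts are uncertain. None of the 6 SPRR genes tested was called.

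The LCE genes, expressed late in cornification, summed to 5.31 CPM in control 1 and at most 0.168 CPM in the other 3 controls. The sum was 0.278 to 4.39 CPM (median 1.67) at 6 days and 0.675 to 7.32 (median 3.38) at 14 days. The Lce1 gene with the highest mean, Lce1a1, was at 0.786, 0, 0 and 0.0447 CPM in controls, 0.0512 to 0.867 (median 0.314) at 6 days and 0.78, 0.178 and 1.01 at 14 days. Lce3f, the highest Lce3 gene, was above 0 in control 1 at 0.325 CPM, in 6-day library 6 at 0.210 and by 1 count in 14-day library 1. All 6 tested LCE genes had positive log2 fold changes at 14 days against control, 0.90 to 3.02, and none was called. Each had at most 4 counts in controls 2, 3 and 4 and passed the filter through other libraries. Their shared sign is therefore not read as a result. Lce1 and Lce3 transcripts share up to 49.3% of their windows with their relatives.

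Summed, the 44 structural members were at 131 CPM in control 1 and 21.6 to 26.1 CPM in the other controls. The sum was 43.0 to 92.5 CPM (median 53.5) at 6 days and 45.1 to 175 (median 99.5) at 14 days. Every treated library lay above controls 2, 3 and 4 and no 6-day library above control 1. A few genes held much of this sum, so it is not a level of all 44. Tchh held 14.0 of 21.6 CPM in control 2 and 48.9 of 77.1 in 6-day library 1. Sprr1a held 59.3 of 131 CPM in control 1 and 67.6 of 175 in 14-day library 1. At 14 days against control 17 of 20 tested structural members had a positive log2 fold change, with a median of 1.56. Some of them passed the filter through treated libraries, so these signs are not read as a result. EdgeR called 0 of 20 (1 at an unadjusted p under 0.05), and DESeq2 called 0 beside 14.7% of all genes. Control 1 was also the highest control for the 28 partner genes described next, at 5138 CPM against at most 2628.

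Control 1 was the highest control in these same genes, so a fit without it is chosen on their levels, and its counts are a description from which nothing is read. At 14 days against control 7 of 34 tested members were called higher, beside 3.96% of 19809 genes: Ivl (edgeR adjusted p = 0.012), Lce6a (0.014), Rptn (0.023), S100a9 (0.031), Flg (0.037), Hrnr (0.041) and Sprr2d (0.043), of which Lce6a and Sprr2d were singled out after their values were seen. Of the 7, 5 (Rptn, Hrnr, S100a9, Lce6a and Sprr2d) were at 0 in the 3 remaining controls and passed the filter through treated libraries. S100a10 was still called lower, at -0.92 on the log2 scale (edgeR adjusted p = 0.019), and S100a11 was not (0.083). At 6 days against control without control 1, 0 of 34 members were called by edgeR, beside 1.18% of all genes, and 19 were at an unadjusted p under 0.05, beside 12.2% of all genes. Against 6 days, Ivl was then called higher at 14 days (2.32, edgeR adjusted p = 0.036). Nothing in the labels sets control 1 apart, and its part in the other results was measured only by leaving it out.

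**Figure D4:**
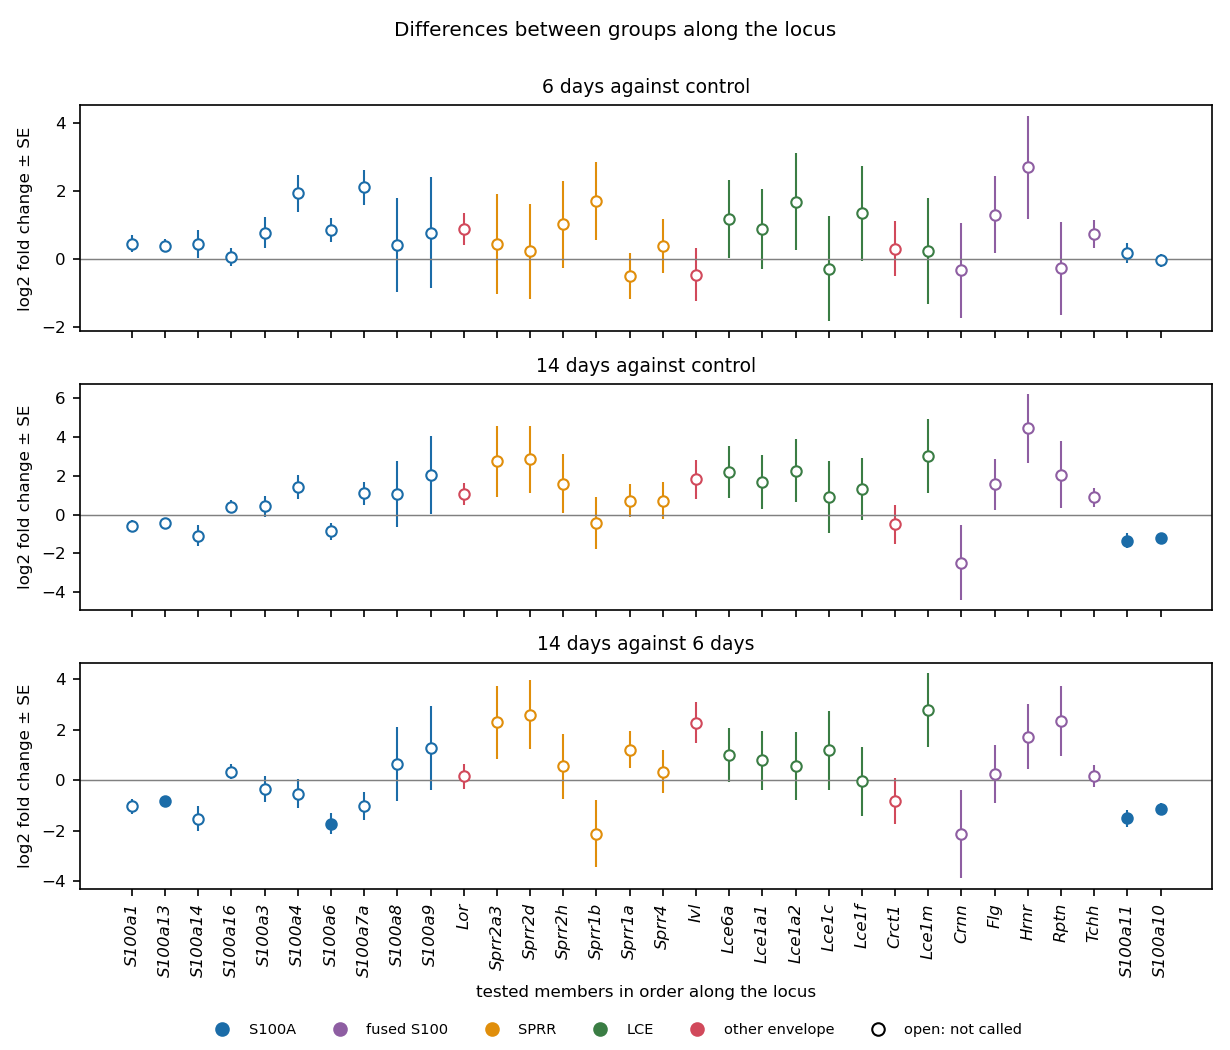
Log2 fold change with its standard error (vertical axis) for the 32 tested members in order along the locus (horizontal axis), for the 3 comparisons, with colour for the family and filled points for called members. Filled points are S100a10 and S100a11 in both comparisons at 14 days, and S100a6 and S100a13 against 6 days; structural members have mostly positive values with wide errors at 14 days.

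Partners of the complex elsewhere in the genome were compared by list. Of 28 suprabasal genes (keratins, transglutaminases, desmosomal and barrier genes), 25 had a positive log2 fold change at 14 days against control, with a median of 1.36. Krt10, the keratin of suprabasal cells, and Cdsn, a corneodesmosome protein, were called higher, beside 3.25% of all genes. Krt10 was at 447, 168, 178 and 163 CPM in controls and 3011, 167 and 1016 at 14 days (log2 fold change 2.55, edgeR adjusted p = 0.045), so 14-day library 2 lay among the controls. Cdsn was at 4.88, 0.683, 1.47 and 1.94 CPM in controls and 12.3, 5.32 and 9.04 at 14 days (1.99, edgeR adjusted p = 0.041), with no overlap. Against 6 days Krt10 and Dsg1a, a desmosomal cadherin, were called higher, beside 2.14% of all genes. DESeq2 called 7 of the 28 in each of these comparisons, beside 14.7% and 14.8% of all genes. At 14 days against control edgeR called 10 of 28 higher without control 1 (the highest control for this list too), beside 3.96% of all genes. Without the range B libraries it called 1 of 28 (Ppl, a cornified envelope plakin). Without 14-day library 1 it called 0 of 28, with 2 at an unadjusted p under 0.05. Over all genes these last fits called 2330 and 376, against 1238 with all libraries. In the fit of all libraries 13 of 28 were at an unadjusted p under 0.05. The share of all genes under that cut was not counted at 14 days. This and the other counts at that cut at 14 days are therefore not read as a result. The calls of Krt10 and Cdsn were lost without range B (edgeR adjusted p = 0.081 and 0.068) and when scaled by library totals (0.054 and 0.051). At 6 days against control edgeR and DESeq2 called 0 of 28. In edgeR 3 were at an unadjusted p under 0.05, beside 12.7% of all genes.

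Of 22 regulators of the locus, 3 were called higher at 14 days against control, beside 3.25% of all genes. They were Gata3, Pou2f3 and Rora, transcription factors of epidermal differentiation and the follicle. Pou2f3 was at 46.4, 13.01, 8.53 and 20.8 CPM in controls and 213, 42.4 and 83.5 at 14 days (log2 fold change 2.35, edgeR adjusted p = 0.017). At 6 days edgeR called 0 of 22, beside 1.26% of all genes, with 6 at an unadjusted p under 0.05, beside 12.7%. DESeq2 called 2, beside 4.52%. Of 10 stress and wound genes, Plaur, the urokinase receptor, was called lower at 6 days (-2.75, edgeR adjusted p = 0.030) and at 14 days (-4.48, 0.009) against control. Over all genes, 1.26% were called in either direction at 6 days and 3.35% lower at 14 days. Of 4 tested neighbours within the locus but outside the rule, 2 were called higher at 14 days against control, beside 3.25% of all genes. They were Kprp, a keratinocyte proline-rich protein, and Pglyrp4, a peptidoglycan recognition protein. Kprp was at 0.190, 0, 0 and 0 CPM in controls and 2.82, 0.823 and 5.10 at 14 days (edgeR adjusted p = 0.041), and passed the filter through treated libraries. Pglyrp4 was at 0.157 to 1.16 CPM in controls and 20.6, 0.916 and 23.6 at 14 days (edgeR adjusted p = 0.040).

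Of 11 S100 binding partners and receptors edgeR called none at 14 days against control, with 2 at an unadjusted p under 0.05. DESeq2 called Ager, the receptor for advanced glycation end products, lower, beside 14.7% of all genes called in either direction. Anxa2, the partner of S100a10, was at 1925, 1098, 1257 and 732 CPM in controls and 2890, 1386 and 1653 at 14 days, where S100a10 was lower (log2 fold change of Anxa2 0.66, edgeR adjusted p = 0.236). Of the 3 S100 genes outside the locus 2 were tested, and neither edgeR nor DESeq2 called them at 14 days against control, with 0 and 1 at an unadjusted p under 0.05.

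Marker genes of several cell types were compared by list as well. The 9 macrophage markers summed to 6.74 to 16.4 CPM in controls, 4.26 to 12.95 at 6 days and 32.7 to 46.6 at 14 days. Of the 9, Adgre1, C1qb and C1qc were called higher at 14 days against control, beside 3.25% of all genes. Of 8 basal keratinocyte markers, Krt15 was called higher at 6 days, and Krt15, Cdh1 and Itga6 at 14 days against control. Over all genes, 1.26% were called in either direction at 6 days and 3.25% higher at 14 days. Of 9 tested markers of the inner root sheath and hair shaft, edgeR called Gata3, also in the list of regulators, higher at 14 days against control. Of the 9, 4 had a positive and 5 a negative log2 fold change, with a median of -0.01. DESeq2 called Gata3 higher and Krt28 lower, beside 14.7% of all genes called in either direction. The lists for sebocytes, Langerhans cells, T cells, fibroblasts, endothelium, melanocytes, Schwann cells and mast cells held 32 tested genes. Among them edgeR called 0 at 14 days against control, with 3 at an unadjusted p under 0.05. DESeq2 called 3 of the 32, beside 14.7% of all genes called in either direction. The part of these cells in the S100A and structural results was not tested.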

How the data were processed

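PolyA RNA of 15 libraries was analysed (4 control, 8 at 6 days, 3 at 14 days), grouped by the treatment label. Deposited values are, per the file headers, counts of uniquely aligning reads per gene model and RPKM adjusted by size factors; RPKM served only for levels between genes. The submitters' processing notes name GSNAP and GRCm38; for versions, annotation and strand: not given in the sources used here. Of 36528 Entrez identifiers, 31049 matched RefSeq symbols; the other 5479 held 1.24 to 1.59% of counts.

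Counts were tested with edgeR 4.0.16 (R 4.3.3; TMM, filterByExpr by group, quasi-likelihood F test) in 1 fit of all 15 libraries without covariates, with 18751 genes, 12 residual degrees of freedom and a common biological coefficient of variation of 0.579. p-values were adjusted by Benjamini-Hochberg over all genes tested. CPM values are TMM-scaled, and ± is the standard error of a log2 fold change computed here from the deposited counts. The fits were tested on simulated data. Alternatives were DESeq2 1.42.0, RLE factors, library totals, other filters, fits of the 2 groups compared, identifier ranges as a term or subset, and each library left out; leaving out all range B libraries was added after seeing the data. Windows of 50 bases of GENCODE transcripts were compared between genes. Python 3.11.15 (numpy 2.4.6, pandas 2.3.3, matplotlib 3.10.9) made the other steps. The members and lists were chosen with earlier results of these data known. Named are called members, the 10 members with the highest mean RPKM, a set of members chosen by name, the highest Sprr2, Lce1 and Lce3 gene, and from each other list up to 4 called genes or else its highest genes. Replicate numbers follow accession order and pair nothing. Depth is given as total counts, and 3 counts as the floor; floors cover counting error only.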

Additional observations from a re-analysis of the deposited data

Results flagged for a closer look

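Of 52 groups of values examined among the named members (each gene in the controls and in the 6-day libraries), 17 held a library farther from the others than the 95% critical value of Dixon's test allows. Chance gives about 1 of 20 groups if values are normally distributed, which CPM of low genes are not. In 6 of the 17 all other libraries of the group were at 0 (Rptn, Hrnr, S100a9, Lce3f and Tchhl1 in controls, Lce3f at 6 days), where the ratio is at its maximum whatever the value, so the number of such groups is not read as a test. Control 1 accounted for 11 of them, always as the highest control: Ivl at 25.4 CPM, Sprr1a at 59.3, Sprr1b at 2.44, Sprr2a3 at 0.949, Flg at 4.23, Hrnr at 0.271, Rptn at 1.92, Lce1a1 at 0.786, Lce3f at 0.325, S100a8 at 16.7 and S100a9 at 11.7 CPM. Control 4 was the lowest for S100a1 at 26.8 CPM and the highest for S100a7a at 1.34 CPM, and control 2 held the only Tchhl1 count of the controls (1 count, 0.0297 CPM). At 6 days library 6 was the highest for Hrnr at 1.65 CPM and Lce3f at 0.210 CPM, and library 7 for Sprr1b at 8.92 CPM.

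The responses at the 2 times differed by test for 4 members, whose 14-day levels were lower than at 6 days: S100a10 by a log2 fold change of -1.14, S100a11 of -1.51, S100a6 of -1.73 and S100a13 of -0.84 (edgeR adjusted p = 0.017, 0.030, 0.037 and 0.040). The 14-day libraries are the only ones of their identifier range, so time and range cannot be told apart.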

How the results depend on the processing

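Among 24 tested named members, 1629 of 1689 alternative values kept their side of the threshold, 38 lost a call and 22 gained one. Of all 1689, 53 values of 16 members had the opposite sign, none of them called in either fit: at 6 days without control 1, Ivl went from -0.46 to 1.74 and Sprr1a from -0.50 to 1.05, and within range A S100a8 went from 0.40 to -0.36. At 6 days the 0 members called became 2 with DESeq2 and 1 with a term for range B, within range A, within range B (Flg, with control 4 the lone control and assumed to vary like the rest) and without all range B libraries; leaving out a library gave 0 to 1. At 14 days against control the 2 became 0 in a fit of the 2 groups alone and 1 without a filter, and leaving out a library gave 0 to 8 (8 without control 1). Against 6 days the 4 became 7 with DESeq2, and leaving out a library gave 0 to 5 (0 without 14-day library 1 or 3, where 3 and 43 of all genes were called). Over all genes, 236, 1238 and 730 calls for the 3 comparisons became 846, 2752 and 2609 with DESeq2, 866, 3196 and 2036 with the range B term, and 465, 2330 and 1322 without range B; within range A 468 were called at 6 days, in a fit of 2 groups 374 at 14 days against control, and without a filter 460 against 6 days. Scaling by library totals moved the median log2 fold change of all genes at 14 days against control by -0.11, and S100a10 and S100a11 were lower under it too, while the call of S100a13 against 6 days was lost (adjusted p = 0.056). No paired analysis was possible because the labels carry no replicate numbers. Members under the floor of 3 counts (0.0117 to 0.110 CPM) could not be compared.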
